A study of Mus musculus with 8 samples.

Results

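Dorsal skin of wild-type mouse embryos at embryonic day 18.5 (E18.5) was set against dorsal skin at E14.5 over the genes for which every probeset gave the same direction of change. A gene qualified when at least 2 probesets carried its symbol alone and the difference between the E18.5 and E14.5 means of log2(signal + 16) had a single sign in all of them. Of 18193 genes on the array, 9010 had 2 or more such probesets, and 4068 of these (45.1%) met the rule and are called agreeing genes here. The series follows skin over the days in which the epidermis differentiates. E14.5 has 2 arrays, E16.5 has 3 and E18.5 has 3, all from untreated wild-type dorsal skin as far as the labels say. No source used here gives the strain, the sex or any pooling of embryos. Because members were chosen by the E18.5 minus E14.5 difference itself (the net change), net changes are described without a test, and the terms higher and lower then refer to stage means only. The E16.5 arrays took no part in that choice. A test on them was therefore made, comparing the E16.5 mean with the mean of the other 5 arrays (the E16.5 departure). Noise in this contrast has no covariance with noise in the net change if all arrays vary equally. A shift shared by the E14.5 arrays enters both, in the same direction.

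In this interval the mouse epidermis stratifies beneath a transient outer layer, the periderm, and builds the cornified, lipid-sealed barrier that is needed at birth. Hair follicles grow down from epidermal placodes under Hedgehog, Wnt, BMP and FGF signals while the dermis lays down collagen and elastic fibres and fat and muscle mature below it. In the blood carried by the tissue, red cells of the yolk sac lineage, which make embryonic globins, are replaced by cells of the fetal liver lineage.

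The E14.5 arrays stood apart from the other 6 in control probesets as well as in skin genes. The ratio of the 3′ to the 5′ beta-actin probeset was 6.49 and 6.91 at E14.5 but between 1.11 and 1.37 on the 6 later arrays, and the bioB hybridization control gave 5592 and 5287 at E14.5 against 540 to 649 later. Median signals were 63.4 and 60.8 at E14.5 and 120.1 to 153 at the later stages, and the median gene was 0.51 higher at E18.5 than at E14.5 on the log2 scale. Stage and array preparation cannot be told apart in any comparison that uses E14.5, the E16.5 departure included. Epidermal markers (5 of 5) and dermal markers (5 of 5) lay above background on all 8 arrays, background being set per array from olfactory and vomeronasal receptor probesets. Skeletal muscle markers (5 of 5 above background at every stage) had summed signals of 4216 to 7785 at E14.5, against 45280 to 70570 at E18.5. Adipocyte markers summed to 2835 to 3353 and 28116 to 35062, with 2 and 4 of the 4 measured above background on all arrays. Macrophage markers summed to 13496 to 16548 and 7539 to 10485. In whole skin, fewer cells of a type and less RNA per cell cannot be told apart. The labels do not state that samples came from separate animals, so p-values measure only the spread between these samples, which may be technical. Sample titles carry codes that the labels do not explain, parts of which recur at different stages.

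Among the agreeing genes, 3331 were higher at E18.5 in every probeset and 737 were lower. This split moved with the scaling of the arrays. After quantile normalization, which gives every array the same distribution, 1855 genes agreed on higher and 1771 on lower signals, and the median gene differed by 0.0086. With each array centred on its median the split turned to 999 higher and 2899 lower. Of the 3331 genes higher in the deposited values, 1759 kept that direction in every probeset after quantile normalization and 999 after median centring, while 200 and 556 of them agreed on the opposite direction. Of the 737 genes lower in the deposited values, 695 and 737 remained lower in every probeset. Net changes are therefore best read against the median gene. The rule asks for a common sign and not for separate or measurable signals. The E14.5 and E18.5 arrays did not overlap in any probeset in 1753 of the 3331 genes higher and 280 of the 737 lower. The higher stage lay above background in every probeset in 1759 and 511 of them. In 430 agreeing genes the brightest probeset was at or below background at every stage. These counts were not made over all genes.

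**Figure D1:**
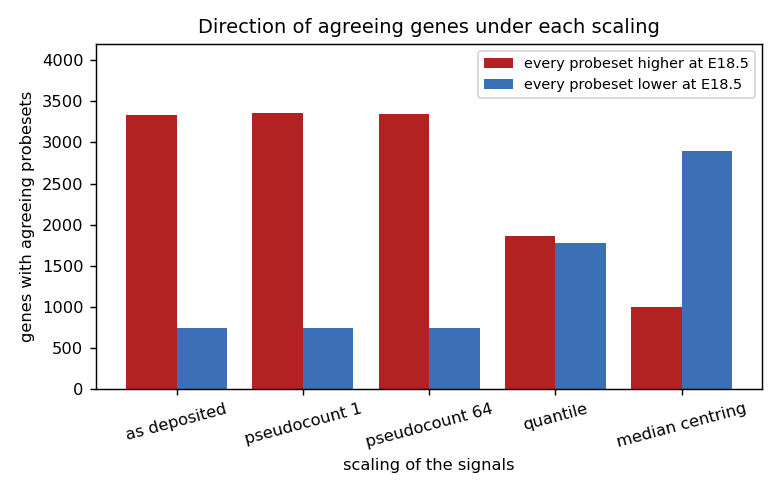
Number of genes (vertical axis) whose probesets all lay higher (red bars) or all lower (blue bars) at E18.5 than at E14.5, for each scaling of the signals (horizontal axis). The 3331 to 737 split of the deposited values is close to even after quantile normalization (1855 to 1771) and reversed with median centring (999 to 2899).

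The size of the net change was taken from the probeset of each gene with the highest mean log2 signal over the 8 arrays. Its median was 0.93 over the agreeing genes, 1.19 over those higher at E18.5 and −1.07 over those lower. Past 2-fold lay 1934 agreeing genes higher and 386 lower, beside 35.5% of all genes higher and 14.7% lower. Because the rule used these differences, nothing is read from the comparison. A stricter group had every probeset past 2-fold, 1033 genes higher and 151 lower. Agreement became rarer as probesets were added. It was 59.1% of the 4695 genes with 2 probesets, 37.7% of 2366 genes with 3, 26.3% of 1093 genes with 4 and 9.41% of 393 genes with 6 or more. Even within an agreeing gene the probesets spread widely, with a median gap of 1.05 between the largest and smallest net change. The sign rule has no margin around 0. Just inside it were Ifi209, with a smallest probeset difference of 0.000154, and Ccdc151, with −0.000931, and just outside were Ezh1, whose exception was −0.000024, and Usp29, whose exception was 0.000819. Ezh1 shows how little can decide membership, since its brightest probeset had a net change of 2.13.

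At E16.5, 1444 agreeing genes were higher than over the other 5 arrays and 462 were lower (limma, adjusted p under 0.05), which is 35.5% and 11.4% of them, beside 23.9% called higher and 16.1% called lower among all genes tested. A gene higher at E18.5 has a positive departure once its E16.5 mean has passed the weighted middle between E14.5 and E18.5, and a negative one while it still lags near E14.5. Of the 3331 genes higher at E18.5, 1409 were called higher at E16.5 and 153 lower. Of the 737 genes lower at E18.5, 309 were called lower and 35 higher. Both contrasts take in the E14.5 arrays with the same sign, so these counts are not free of the rule that chose the genes. Among the 1033 genes past 2-fold higher in every probeset the median share of the net change already present at E16.5 was 96.8%, and among the 151 past 2-fold lower it was 98.3%. Most large differences thus lay between E14.5 and the later stages, the boundary at which the control probesets also changed, and their part in the result was not tested. Each call was repeated in 18 alternative fits, with other pseudocounts, scalings, filters, variance settings and probeset summaries and with each array left out. Calls that held in all of them numbered 621 of 1444 higher and 163 of 462 lower. A departure printed below for a single gene held under every alternative unless the text beside it says otherwise, and counts of calls in a gene list are followed by the number that held. Values of single genes are those of the probeset with the highest mean signal, and other probesets are given where they differ in kind.

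**Figure D2:**
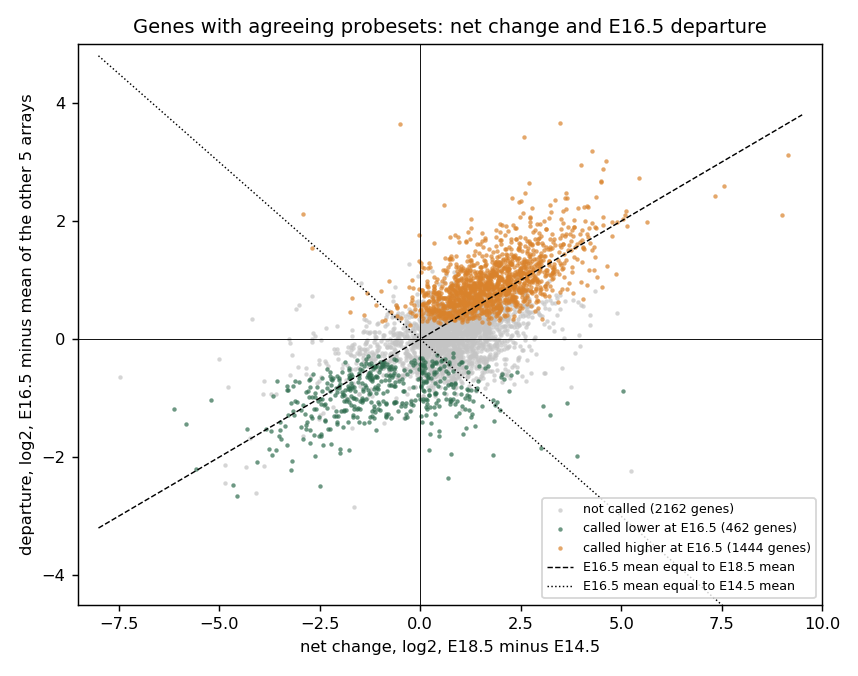
Net change (horizontal axis, log2, E18.5 minus E14.5) against the E16.5 departure (vertical axis, log2, E16.5 minus the mean of the other 5 arrays) for the 4068 agreeing genes, one point per gene. Orange marks the 1444 genes called higher at E16.5, green the 462 called lower and grey the 2162 not called; points on the dashed line had equal E16.5 and E18.5 means, and points on the dotted line equal E16.5 and E14.5 means.

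The 10 genes with the largest net increase, ranked by their least changed probeset among genes with separate stages and a measurable higher stage, were led by genes of the differentiating epidermis. Lce1a1, a late cornified envelope protein, gave signals of 3.51 and 1.82 at E14.5, 4756, 10358 and 7886 at E16.5, and 10092, 13721 and 8638.5 at E18.5. Both E14.5 arrays were below background, and the E18.5 mean was at least 175-fold above it, on the log2(signal + 16) scale used for all folds. Its E16.5 departure was 3.12 ± 0.23 (SE), adjusted p = 1.25e-05. Lce1f of the same family gave 13.4 and 1.79 at E14.5, 1979.8, 7639 and 4734 at E16.5, and 10175, 16673 and 9488 at E18.5, at least 193-fold, but its probesets departed unequally at E16.5 (0.19 and 2.11), and its call was lost without either E14.5 array and with the mean of its probesets (adjusted p up to 0.246). Members of this family are near-identical copies, and the split of signal between them is uncertain.

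Cebpb, a leucine zipper transcription factor of differentiating keratinocytes, gave 186 and 149 at E14.5, 4759, 5248 and 5023 at E16.5, and 3989, 4727 and 3956 at E18.5. All later arrays lay more than 20 times above both E14.5 arrays, and the highest values were those of E16.5. The net change was 4.54, a fold of 23.2, and the departure was 2.06 ± 0.11 (SE), adjusted p = 3.89e-06. Il1f5, which encodes the antagonist of the interleukin-36 receptor, had the same shape, with 112 and 148 at E14.5, 4335, 5685 and 5474 at E16.5, and 4882, 6981 and 3505 at E18.5, a net change of 5.09 and a departure of 2.09 ± 0.20 (SE), adjusted p = 3.75e-05. Serpina12, a protease inhibitor also called vaspin, was below background on both E14.5 arrays and gave 3.27 and 6.5 at E14.5, 1671, 4104 and 3626 at E16.5, and 4066, 5493 and 2704 at E18.5. The E18.5 mean was at least 64.8-fold above E14.5, and the departure was 2.60 ± 0.30 (SE), adjusted p = 0.000103. Rnf225, a RING finger protein, gave 63.3 and 51.0 at E14.5, 1256, 2780.3 and 2560.4 at E16.5, and 1577, 2643.5 and 1870.4 at E18.5, with a net change of 4.78.

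The other genes of this group lie outside the keratinocyte programme or are less settled. Csrp1, a LIM domain protein of the actin cytoskeleton, gave 205 and 116 at E14.5, 2665, 2691 and 2764.5 at E16.5, and 3642, 4132 and 2701 at E18.5, a net change of 4.34 with a departure of 1.39 ± 0.18 (SE), adjusted p = 0.000205. Lamc3, a laminin chain, had a lower E14.5 level that differed between its arrays, with 1.28 and 25.5 at E14.5, 154, 218 and 203 at E16.5, and 576, 429 and 449.6 at E18.5. The E18.5 mean was at least 8.17-fold above background at E14.5, and the net change of 4.21 became 3.58 without E14.5 replicate 1 and 4.85 without replicate 2. Lrrc15, a leucine-rich repeat membrane protein, gave 34.8 and 71.2 at E14.5, 253, 364 and 301 at E16.5, and 1477, 1038 and 704 at E18.5, so that its E16.5 arrays lay between those of the other stages. Neither Lamc3 nor Lrrc15 had a called departure (adjusted p = 0.296 and 0.750). Krt12, a keratin best known from the cornea, gave 19.3 and 2.07 at E14.5, 161, 324 and 302 at E16.5, and 371, 582 and 162 at E18.5, at least 5.68-fold higher at E18.5. Its call (adjusted p = 0.0496) was lost under 8 of 18 alternatives, with an adjusted p of up to 0.439.

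**Figure D3:**
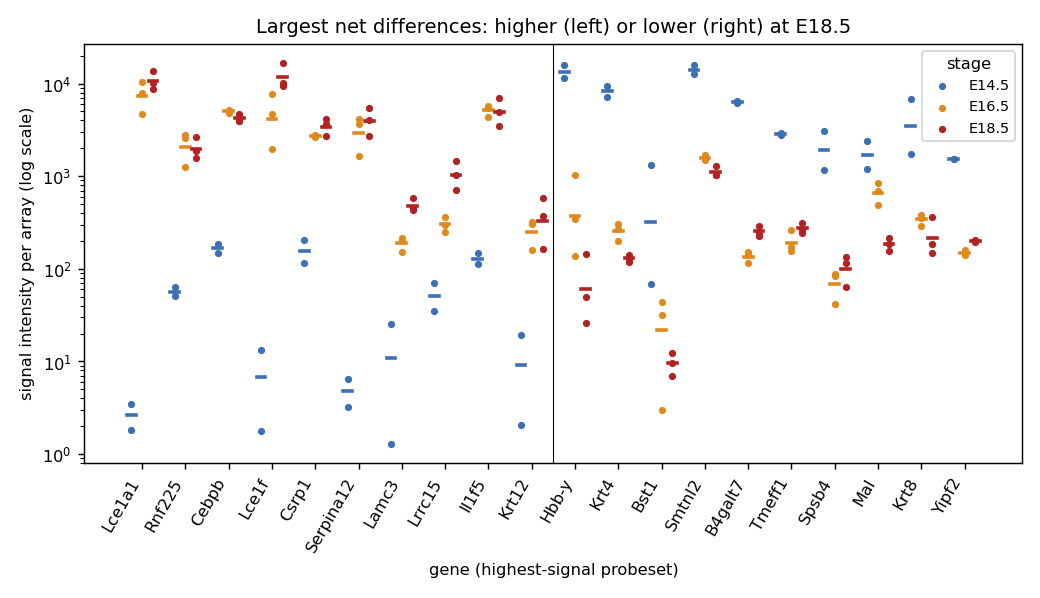
Signal intensity on each array (vertical axis, log scale) for the 10 genes picked as highest and the 10 picked as lowest at E18.5 relative to E14.5 (horizontal axis), each by its highest-signal probeset. Points are single arrays coloured by stage and dashes are stage means of log2(signal + 16) turned back to signal. For most genes the orange E16.5 points lie beside the red E18.5 points. In Mal, Lrrc15, Lamc3, Lce1f, Krt4 and Smtnl2 all E16.5 points lie between those of the other stages.

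Promoter windows of 250 bases before to 50 bases after the annotated start (RefSeq, GRCm38.p6) were found for 3235 of the 4068 agreeing genes. Windows of 4 members are printed to show the promoters of 2 genes high from E16.5 on, of the most reduced globin gene and of the acute-phase gene that peaked at E16.5, which is described further below. On both strands 6 short motifs were searched, the TATA box as TATAAA, the box CCAAT, the AP-1 site TGANTCA, the C/EBP site TTGCNNAA, the Grainyhead site AACCNGTT and the GATA site AGATAA. Capitals mark their matches, of which no 2 overlap in the printed windows.
Cebpb, chr2:167688665-167688964, plus strand: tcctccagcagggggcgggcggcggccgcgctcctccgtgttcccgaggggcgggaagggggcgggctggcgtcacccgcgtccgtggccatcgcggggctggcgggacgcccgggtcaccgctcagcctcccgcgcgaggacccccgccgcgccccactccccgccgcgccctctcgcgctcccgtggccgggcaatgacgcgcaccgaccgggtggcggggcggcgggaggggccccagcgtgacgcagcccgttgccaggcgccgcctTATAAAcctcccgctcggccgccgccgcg
Serpina12, chr12:104044394-104044693, minus strand: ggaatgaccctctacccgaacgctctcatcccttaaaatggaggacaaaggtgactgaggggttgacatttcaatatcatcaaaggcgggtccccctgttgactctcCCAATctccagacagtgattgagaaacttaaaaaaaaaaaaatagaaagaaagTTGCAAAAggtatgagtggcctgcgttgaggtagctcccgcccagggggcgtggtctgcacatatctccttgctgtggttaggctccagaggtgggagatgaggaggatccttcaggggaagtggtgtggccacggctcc
Hbb-y, chr7:103853158-103853457, minus strand: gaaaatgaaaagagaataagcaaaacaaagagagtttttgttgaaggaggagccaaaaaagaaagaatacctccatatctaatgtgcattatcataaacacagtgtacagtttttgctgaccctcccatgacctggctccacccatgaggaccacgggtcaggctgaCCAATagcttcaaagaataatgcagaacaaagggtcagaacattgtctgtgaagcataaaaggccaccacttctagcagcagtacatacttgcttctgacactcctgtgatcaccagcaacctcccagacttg
Saa1, chr7:46742931-46743230, minus strand: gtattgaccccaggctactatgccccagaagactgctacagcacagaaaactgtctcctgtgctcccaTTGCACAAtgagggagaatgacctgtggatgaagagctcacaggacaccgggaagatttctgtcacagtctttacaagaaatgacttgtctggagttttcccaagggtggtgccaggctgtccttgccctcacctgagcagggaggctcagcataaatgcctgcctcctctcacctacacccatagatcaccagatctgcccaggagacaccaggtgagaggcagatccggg
The Cebpb window, with 80.7% G and C, held 1 match, TATAAA, at bases 22 to 27 after the start, and that of Hbb-y held 1, CCAAT, 83 bases before the start. TTGCNNAA matched 90 bases before the start in Serpina12, which also held CCAAT at 143 bases, and 182 bases before it in Saa1. That motif was present in 10.8% of all 32851 promoter windows, in 8.05% of those of agreeing genes higher at E18.5 and in 8.53% of those lower. TATAAA was present in 13.6%, 7.62% and 9.22%, CCAAT in 37.4%, 36.7% and 38.9%, TGANTCA in 7.81%, 6.49% and 5.50%, AACCNGTT in 2.09%, 1.71% and 2.48%, and AGATAA in 11.2%, 6.66% and 7.43%. Median G and C content was 52.7% over all windows, 59.7% over those of genes higher at E18.5 and 60.0% over those of genes lower, so both directions shared the more GC-rich windows. A match is a description of letters and not a binding site.

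The 10 genes picked for the largest net decrease included an embryonic globin and the keratins Krt4 and Krt8. Hbb-y, the embryonic beta-like globin, gave 15884 and 11372 at E14.5, 1035, 139 and 344 at E16.5, and 26.1, 49.4 and 144 at E18.5. The stage means were lower at each step, and signals were at or below background on 2 of 3 E18.5 arrays, at least 122-fold below E14.5. Its departure was -0.64 ± 0.57 (SE), adjusted p = 0.415. Krt4, a keratin of internal stratified epithelia, gave 7236 and 9428 at E14.5, 199, 271 and 307 at E16.5, and 128, 119 and 143 at E18.5, a fold of 56.9 with no overlap between any 2 stages, and its departure of -1.43 ± 0.17 (SE) (adjusted p = 0.000119) was lost without E14.5 replicate 2 (adjusted p = 0.0640). Krt8, a keratin of simple epithelia and periderm, gave 6892 and 1745 at E14.5, 356, 384 and 293 at E16.5, and 363, 186 and 147 at E18.5. Its E14.5 arrays differed, and the net change of -3.91 became -2.92 without E14.5 replicate 1 and -4.90 without replicate 2. Mal, a raft proteolipid of myelin and epithelia, was intermediate at E16.5, with 1186 and 2423 at E14.5, 494, 844 and 686.1 at E16.5, and 157, 184 and 214 at E18.5.

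In the other genes of this group the E16.5 signals lay nearer to those of E18.5 than to those of E14.5. Smtnl2, a smoothelin-like protein, gave 12815 and 15695 at E14.5, 1484, 1550 and 1706 at E16.5, and 1027, 1038.5 and 1287 at E18.5, a departure of -0.96 ± 0.12 (SE), adjusted p = 0.000129. B4galt7, a galactosyltransferase of the proteoglycan linker, gave 6459.6 and 6242 at E14.5, 141, 154 and 116 at E16.5, and 246, 225 and 293 at E18.5, so that the E18.5 arrays lay above all 3 E16.5 arrays. Its departure was -2.65 ± 0.15 (SE), adjusted p = 4.41e-06. Tmeff1, a membrane protein with follistatin-like domains, had a net change of -3.31, Yipf2, a Golgi membrane protein, of -2.85, and Spsb4, a SOCS-box protein, of -4.05, with departures of -1.80, -1.53 and -2.08. For Spsb4 the net change became -3.35 without E14.5 replicate 1 and -4.76 without replicate 2. Bst1, a cell-surface ectoenzyme of the cyclic ADP-ribose pathway, rested on 1 array, with 1316.5 and 68.7 at E14.5, 2.97, 43.5 and 31.8 at E16.5, and 12.3, 6.97 and 9.72 at E18.5. All 6 later arrays were below background, and the net change of -3.72 became -1.73 without E14.5 replicate 1 and -5.70 without replicate 2.

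The lists below were read in the same way. Each median over agreeing genes is that of genes chosen by their net change, so the median over all measured genes of the list, agreeing or not, is given with it, and both stand beside 0.51 over all genes. All 4 agreeing genes of the basal layer list were higher at E18.5 (median net change 2.07, and 2.17 over all 16 measured genes of the list). Of these, 3 were called higher at E16.5, of which 0 held under every alternative, beside 23.9% called higher over all genes. The largest net change was that of Cdh3, the P-cadherin of basal cells and follicle buds, at 3.79. Krt14, the basal keratin, gave 4195 and 4963 at E14.5, 13938, 15505 and 15386 at E16.5, and 19929, 17725 and 16173 at E18.5, a net change of 1.97. Its departure of 0.53 ± 0.10 (SE), adjusted p = 0.00204, was lost with median centring, with the mean of its probesets and without either E14.5 array (adjusted p up to 0.174). In the suprabasal list 3 of 4 genes were higher (median 0.80, and 0.37 over all 22 measured genes of the list), among them the plakophilin Pkp3 (2.83) and suprabasin, Sbsn (1.30). Dsc2, a desmosomal cadherin, was lower in 1 probeset, with 5521 and 6427 at E14.5, 114, 114 and 109 at E16.5, and 77.9, 139 and 123 at E18.5. Its other probeset had a net change of −0.0218 and departed upward, by 0.40, so that its membership rests on a difference near 0.

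The cornified envelope list had 8 agreeing genes of 9 with several probesets, 6 higher and 2 lower, with a median of 2.61 (2.25 over all 41 measured genes of the list). At E16.5, 7 of the 8 were called higher, beside 23.9% over all genes, and 4 of these calls held. Those of Lce1f, Rptn and Cstb were lost (adjusted p up to 0.375 for Rptn and 0.589 for Cstb). Ivl, the envelope precursor involucrin, gave 164 and 284 at E14.5, 10647, 12037 and 11332 at E16.5, and 4336.5, 5922 and 6299.5 at E18.5. The E16.5 arrays lay above all 3 E18.5 arrays, and the departure of 2.88 ± 0.17 (SE) (adjusted p = 5.39e-06) was matched in its other probeset, at 2.17. Tgm3, a transglutaminase that cross-links the envelope, likewise peaked at E16.5, with 642 and 797 at E14.5, 1994, 2186 and 2053 at E16.5, and 1025, 1380.4 and 867 at E18.5, a net change of 0.57 and a departure of 1.17 ± 0.15 (SE), adjusted p = 0.000201. The other Tgm3 probeset had a much larger net change, 3.44, and a departure of 1.69. Casp14, the caspase that processes filaggrin, had a net change of 2.98 and a departure of 1.2 ± 0.18 (SE), adjusted p = 0.000511. The genes that were lower were Scel, sciellin (-1.26), and Cstb, cystatin B (-0.87). Cstb had 1 probeset of the opposite sign after quantile normalization, and so had Tgm3 and Rptn with median centring. Among inhibitors and proteases all 3 agreeing genes were higher (median 2.66, and 2.12 over all 29 measured genes of the list), led by Serpinb12 at 4.06, with a departure of 1.57 ± 0.18 (SE), adjusted p = 8.72e-05.

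Barrier lipid genes went both ways, 7 higher and 5 lower (median 0.93, and 0.53 over all 39 measured genes of the list). At E16.5, 8 were called higher and 2 lower, beside 23.9% and 16.1% over all genes, and 5 and 1 of these calls held. Genes of ceramide synthesis and release that were higher at E18.5 included Smpd3 (3.56), Cers4 (2.77), Smpd1 (1.89) and Sptlc2 (1.33). Without E14.5 replicate 1 and without replicate 2 the value for Smpd3 was 4.39 and 2.72. Smpd1, acid sphingomyelinase, gave 863 and 900.4 at E14.5, 5737, 6658 and 7186 at E16.5, and 3442, 3969 and 2662 at E18.5, highest at E16.5 in this probeset, with a departure of 1.73 ± 0.13 (SE), adjusted p = 1.53e-05. Its other probeset departed by 0.83 but gave 197, 298 and 216 at E16.5 and 231, 433 and 261 at E18.5. Dgat2, which makes triglyceride, was highest at E16.5, with a departure of 1.40 ± 0.12 (SE), adjusted p = 2.32e-05. The fatty acid elongases Elovl5 (-1.95) and Elovl4 (-1.36) were lower. Sptlc3, part of serine palmitoyltransferase, the entry enzyme of sphingolipids, ended at its starting level in its brightest probeset (net change -0.0225) after a peak, with 719 and 1168 at E14.5, 3133, 3024 and 3234 at E16.5, and 761, 1208.5 and 798 at E18.5, and its departure was 1.77 ± 0.19 (SE), adjusted p = 5.82e-05. Its other probeset had a net change of −0.97. In cholesterol synthesis 4 of 5 genes were higher (median 0.89, and 0.23 over all 19 measured genes of the list), among them Fdps (3.27), Sc5d (1.70) and Mvk (0.89), all called higher at E16.5, and Cyp51 was lower (-1.08) and called lower. The second probeset of Fdps departed by −0.15. With median centring none of the 4 stayed higher in every probeset.

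Of the epidermal transcription and signalling factors 7 of 8 were higher (median 1.44, and 0.20 over all 39 measured genes of the list), 5 of them after either other scaling. After Cebpb the largest was Hopx, a homeodomain-only protein of differentiating keratinocytes, with 497 and 1105.5 at E14.5, 10070, 9474 and 10954 at E16.5, and 6132, 8655.5 and 5533 at E18.5, a net change of 3.13 and a departure of 1.86 ± 0.23 (SE), adjusted p = 0.000151. Notch3 was the gene that was lower, at -0.57. The periderm and simple-epithelium list had 4 agreeing genes (median −3.30, and -0.51 over all 20 measured genes of the list), with Krt4, Krt8 and Krt6a lower and Epcam, an epithelial adhesion protein, higher (1.94), and kept that split under both other scalings.

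Of 33 follicle signalling genes with several probesets 17 agreed, and all 17 were higher at E18.5, 11 of them also after quantile normalization and 7 with median centring. Their median was 2.52, but 0.61 over all 51 measured genes of the list, close to that of all genes. At E16.5, 7 were called higher and 4 lower, beside 23.9% and 16.1% over all genes, and 3 and 0 of these calls held. Lgr5, which marks the lower follicle, was below background on both E14.5 arrays and gave 5.87 and 29.1 at E14.5, 366, 385 and 341 at E16.5, and 562, 774 and 823 at E18.5, at least 11.9-fold, with 0.71 in its other probeset, and Lgr6, a marker of the upper follicle, had a net change of 2.76. The ligand Shh gave 514 and 697 at E14.5, 946, 1209 and 1248 at E16.5, and 4226, 2872 and 2895 at E18.5. Its E16.5 arrays lay between the other stages and nearer to E14.5, and the departure of -0.56 ± 0.17 (SE), adjusted p = 0.0233, was lost under 9 of 18 alternatives (adjusted p up to 0.884), and its other probeset departed upward, by 0.50. The Hedgehog transducer Smo and the factor Gli2 had reached their later level by E16.5, with 209 and 243 at E14.5, 1867, 1588 and 1762.5 at E16.5, and 1890.3, 1412 and 1444 at E18.5 for Smo (net change 0.0801 in the least changed of its 3 probesets) and departures of 1.23 ± 0.13 (SE), adjusted p = 6.40e-05, and 0.80 ± 0.13 (SE), adjusted p = 0.000757. Wnt4, a Wnt ligand, gave 217 and 282 at E14.5, 2187, 2383.5 and 2280 at E16.5, and 2469.8, 1902 and 1829 at E18.5, a departure of 1.34 ± 0.13 (SE), adjusted p = 4.22e-05. Krt17, the keratin of the follicle's outer sheath, gave 323 and 344 at E14.5, 1697, 2106.5 and 1865 at E16.5, and 7405, 4825 and 4364 at E18.5, a net change of 3.95 and no called departure (adjusted p = 0.763). Of its list 2 genes agreed, the other being Dsc2.

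The dermal list held the most agreeing genes after the cell cycle, 23 of 42 with several probesets, and all 23 were higher at E18.5 (median 1.52, and 1.21 over all 56 measured genes of the list). At E16.5, 10 were called higher and 2 lower, beside 23.9% and 16.1% over all genes, and 5 and 0 of these calls held. Quantile normalization left 18 of them higher, 1 lower and 4 with probesets of both signs, and median centring left 10, 2 and 11. The matrix protein fibulin-2, Fbln2, had the largest net change, 4.65, with 96.3 and 137 at E14.5, 1884, 2167 and 2329 at E16.5, and 3731, 3111 and 3036 at E18.5. Elastin, Eln, gave 501 and 511 at E14.5, 3146, 2495 and 2837 at E16.5, and 6764.5, 3441 and 4823 at E18.5, a net change of 3.21, with every E18.5 array above every E16.5 array and no called departure (adjusted p = 0.0523). Under 9 of 18 alternatives Eln was called higher at E16.5 (adjusted p down to 0.000559), and its other probeset departed by 1.52. Fbln1, the related fibulin-1, gave 605 and 613 at E14.5, 4493, 4139.8 and 4621 at E16.5, and 3709.7, 3159 and 3991 at E18.5, already at or above its final level at E16.5, with a departure of 1.30 ± 0.10 (SE), adjusted p = 1.53e-05. The collagen chains Col5a1 and Col18a1 were also called higher at E16.5, with departures of 0.75 ± 0.11 (SE) for Col5a1, adjusted p = 0.000443, and 0.83 ± 0.0913 (SE) for Col18a1, adjusted p = 7.42e-05, whereas Col6a2, Col14a1, Col4a1 and Col11a1 had no called departure. With median centring Col18a1 was lower at E18.5 (-0.0495). The fibrillar chain Col1a2, one of the brightest, gave 19765 and 20362 at E14.5, 24742, 27278 and 26401 at E16.5, and 31076, 32396 and 36161 at E18.5, a net change of 0.72 that was -0.30 with median centring.

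Among factors of early mesenchyme and body position 5 genes were higher and 6 lower (median −0.33, and -0.12 over all 46 measured genes of the list). Sox11, a transcription factor of embryonic progenitors, gave 13805 and 13496 at E14.5, 1193, 666 and 540.5 at E16.5, and 271, 417 and 393 at E18.5, the lowest value of the list at -5.20. Its other probesets had smaller net changes, from -3.21 to -1.02. Those with -1.19 and -1.02 departed upward at E16.5, by 0.88 and 0.43. Snai2, which drives mesenchymal transition, had -1.35 in its brightest probeset and −0.0213 in the other. Higher were Foxc1 (3.59, at least 5.59-fold), below background on both E14.5 arrays, and the position factors Hoxc6 (3.24, but 0.0226 in 1 of 3 probesets) and Hoxa5 (2.29). Without E14.5 replicate 1 Foxc1 had 4.27, and without replicate 2 2.90. Of fetal growth genes, Igf2 gave 12230 and 10695 at E14.5, 16722, 17050 and 17386 at E16.5, and 19902, 19200 and 23026 at E18.5, a net change of 0.85 that was -0.17 with median centring. Its other probeset, with a net change of 2.54, peaked at E16.5, with 1157, 1246.5 and 1185 there and 91.9, 534 and 548 at E18.5. Trim71, a let-7 target, had a net change of -2.70, moving to -1.92 without E14.5 replicate 1. Every E18.5 array lay below background in both of its probesets, so the size of this change is uncertain.

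All 9 agreeing adipocyte genes were higher (median 3.59, and 2.09 over all 25 measured genes of the list), 7 of them after quantile normalization and 5 with median centring, with probesets of both signs in the rest. At E16.5, 1 was called higher and 4 lower, of which 1 and 0 held, beside 23.9% and 16.1% over all genes. Car3, the carbonic anhydrase of fat and muscle, gave 628 and 408 at E14.5, 3562, 1895 and 1792 at E16.5, and 16900, 20788 and 14637 at E18.5, a net change of 5.05 with every E18.5 array above every E16.5 array. Fabp4, the fatty acid carrier of adipocytes, gave 1202 and 1123.5 at E14.5, 5228, 4871 and 4887 at E16.5, and 17122, 19028 and 15394 at E18.5, and Lpl, lipoprotein lipase, 2110.2 and 1680.2 at E14.5, 3809.6, 2346 and 2539.6 at E16.5, and 6381, 8480 and 9767 at E18.5. The departure of Car3, -0.88 ± 0.23 (SE) with adjusted p = 0.0125, was lost without any single E18.5 array, and that of Lpl was lost under 7 of 18 alternatives (adjusted p up to 0.348 and 0.310). The other lower calls, of Gpd1 and Thrsp, were also lost under 7 alternatives each (adjusted p up to 0.158 and 0.141). Acaca, which makes malonyl-CoA, was higher by E16.5, with 389 and 297 at E14.5, 1268, 1212 and 1229 at E16.5, and 1173, 1118.5 and 916 at E18.5 and a departure of 0.85 ± 0.13 (SE), adjusted p = 0.000573.

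Skeletal muscle genes, from muscle below or within the skin sample, were also all higher (12 of 12, median 1.75, and 2.30 over all 46 measured genes of the list). After quantile normalization 8 were higher, 1 lower and 3 of both signs, and with median centring 6, 1 and 5. At E16.5, 7 were called higher and 3 lower, beside 23.9% and 16.1% over all genes, and 2 and 0 of these calls held. Ckm, muscle creatine kinase, gave 52.5 and 89.5 at E14.5, 8445, 9777 and 10632 at E16.5, and 17614, 8266 and 17383 at E18.5, the largest net change of the list at 7.33, with a departure of 2.42 ± 0.25 (SE), adjusted p = 4.97e-05. Des, the muscle intermediate filament desmin, had a net change of 3.50 and a departure of 1.57 ± 0.22 (SE), adjusted p = 0.000352, while its other probeset departed by −0.16. The summed muscle markers moved with these genes, as given above, and their part in other results was not tested.

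Of the 5 agreeing red cell genes 4 were lower (median −2.30, but -0.39 over all 18 measured genes of the list). Besides Hbb-y these were Slc4a1, the band 3 anion exchanger (-3.0), the embryonic globin Hbb-bh1 (-2.30) and Epb42, which was below background throughout. For Hbb-bh1 every E18.5 array lay below background in each probeset, so the size of its net change is uncertain. Ank1, the membrane ankyrin, peaked at E16.5 in its brightest probeset, with 136 and 212 at E14.5, 1196, 846 and 942 at E16.5, and 487, 318 and 478 at E18.5, a departure of 1.69 ± 0.21 (SE), adjusted p = 0.000136. No other Ank1 probeset showed this peak. One gave 650, 770 and 693 at E16.5 and 845, 509 and 781 at E18.5, and the dim ones departed by 0.0057 and 0.00014. Adult globins are not among the agreeing genes. All 9 macrophage and dendritic genes were higher in the deposited values (median 1.22, and 0.84 over all 37 measured genes of the list), but 5 after quantile normalization and 3 with median centring, and the fixed macrophage markers were lower in sum. Mast cell genes were higher in 4 of 5 (median 1.26, and 1.22 over all 17 measured genes of the list) and in 3 after either other scaling, among them Tpsb2, a tryptase, at 2.77, and Kit, the stem cell factor receptor, with 276 and 261 at E14.5, 1895, 1986 and 1947 at E16.5, and 1108, 1138 and 1374 at E18.5 and a departure of 1.53 ± 0.11 (SE), adjusted p = 1.16e-05.

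Melanocyte genes were higher in 7 of 8 (median 2.04, and 1.90 over all 17 measured genes of the list), but in 4 after quantile normalization and 3 with median centring. Tyrp1, a melanin-synthesis enzyme, gave 92.3 and 55.5 at E14.5, 92.1, 136 and 144 at E16.5, and 1125, 695 and 684 at E18.5. Its E16.5 arrays overlapped or stood just above those of E14.5, and all E18.5 arrays lay well above both, with a departure of -1.29 ± 0.25 (SE), adjusted p = 0.00207. Rab38, a melanosome trafficking protein, had the opposite timing, with 890.3 and 1259 at E14.5, 3913, 3460.3 and 3510 at E16.5, and 1901, 2758 and 1785 at E18.5 and a departure of 1.17 ± 0.16 (SE), adjusted p = 0.000301, and probesets of both signs with median centring. Mitf, the melanocyte regulator that other cells also express, was lower, at -1.94. In endothelium 5 of 7 genes were higher (median 0.53, and 1.34 over all 26 measured genes of the list). Cdh5, the vascular cadherin, gave 58.8 and 59.5 at E14.5, 936, 1013 and 1165 at E16.5, and 529, 283 and 427 at E18.5, highest at E16.5, with a departure of 2.32 ± 0.20 (SE), adjusted p = 2.23e-05, and Eng, endoglin, had a net change of 2.98. Of nerve genes, Ngfr, the p75 neurotrophin receptor, peaked at E16.5, with 412 and 393 at E14.5, 986, 1057 and 1276 at E16.5, and 481, 373 and 578 at E18.5, a departure of 1.28 ± 0.16 (SE), adjusted p = 0.000162. Its net change was 0.22 in this probeset but 2.57 in another, and the signs were mixed under both other scalings. Over the 5 agreeing nerve genes the median was 0.32, and 0.0377 over all 25 measured genes of the list.

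Cell cycle genes had no common direction, 14 higher and 10 lower of 24 (median 0.30, and 0.0452 over all 64 measured genes of the list). At E16.5, 12 were called higher and 4 lower, beside 23.9% and 16.1% over all genes, but the calls of Foxm1, Rrm1 and Cdkn1b alone held under every alternative, and Ttk's held in 6 of 18. Foxm1, the mitotic transcription factor, gave 103 and 92.4 at E14.5, 817, 878 and 983 at E16.5, and 589, 502 and 493 at E18.5, a net change of 2.25 and a departure of 1.64 ± 0.14 (SE), adjusted p = 2.16e-05. Rrm1, a subunit of ribonucleotide reductase, had 1.72 and a departure of 0.86 ± 0.10 (SE), adjusted p = 0.000113. The dimmest probesets of both genes departed downward, by −0.18 and −0.60. The inhibitor Cdkn1b gave 5436 and 4753 at E14.5, 723, 1066 and 796 at E16.5, and 675, 1352 and 1129 at E18.5, a net change of -2.31, and the spindle proteins Prc1 (-1.81) and Nusap1 (-1.77) were also lower. After quantile normalization 6 were higher, 10 lower and 8 of both signs, Foxm1 and Rrm1 among the last. The 8 agreeing ribosomal protein genes, 6 higher and 2 lower, had a median of 0.22 (0.34 over all 34 measured genes of the list), and with median centring 0 were higher and 4 lower. At E16.5, 6 were called lower, beside 16.1% over all genes, and 2 of these calls held. Rps29 gave 29244 and 29168 at E14.5, 22094, 23170 and 21290 at E16.5, and 36718, 36857 and 36950 at E18.5, a departure of -0.60 ± 0.0753 (SE), adjusted p = 0.000166, and a net change of 0.33 that was -0.69 with median centring, and Rps20 had -0.95 ± 0.0993 (SE), adjusted p = 5.53e-05. Rpl27a stood apart from the rest of its list, with 26082 and 27223 at E14.5, 863, 949.9 and 899.6 at E16.5, and 265, 379 and 477 at E18.5 and a net change of -6.13, while its departure call was lost without either E14.5 array (adjusted p up to 0.330). Of the 3 agreeing genes of the cartilage and bone list, kept as a list foreign to skin, 2 were higher and 1 lower (median 0.065, the same over all 17 measured genes of the list).

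**Figure D4:**
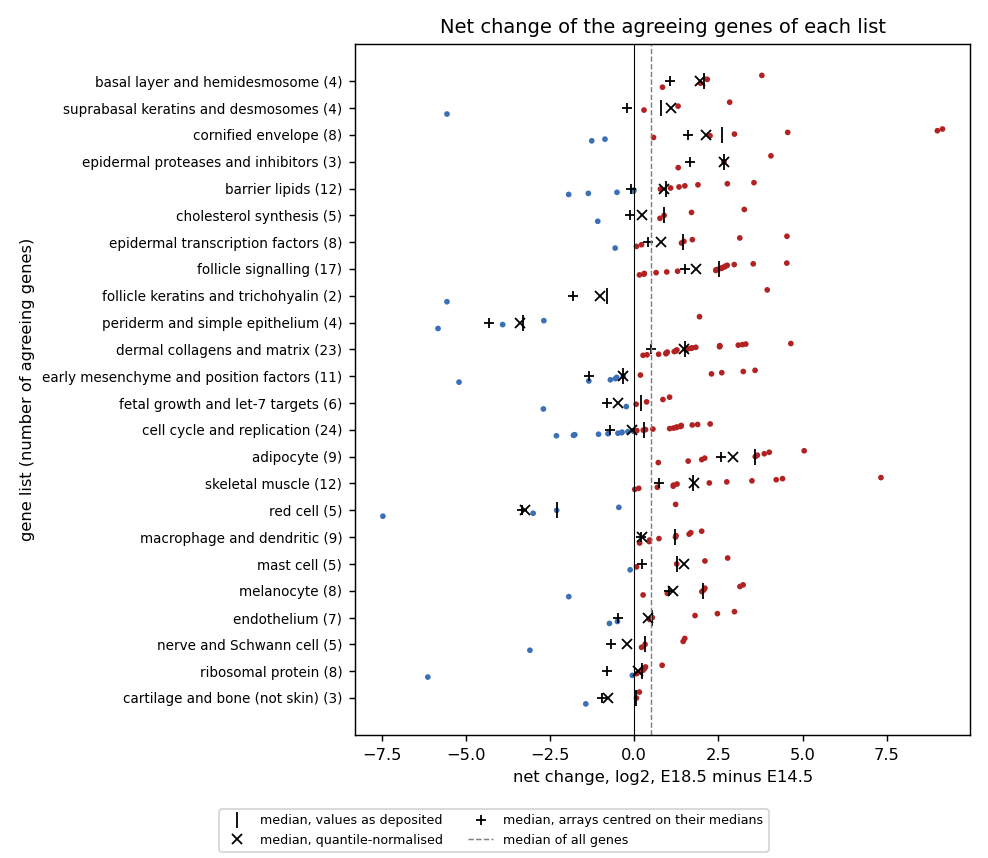
Net change (horizontal axis, log2, E18.5 minus E14.5) of each agreeing gene in 24 gene lists (vertical axis, number of agreeing genes in brackets), red points higher and blue points lower at E18.5. Black marks are list medians under 3 scalings and the dashed line is the median of all genes, 0.51. Medians are those of agreeing genes, which were chosen by their net change. The adipocyte, follicle signalling, cornified envelope and epidermal protease lists have medians above 1.4 under all 3. The red cell, periderm, early mesenchyme and follicle keratin lists stay below 0.

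A small set of agreeing genes ended near their starting level. In 207 of them (5.09%) every probeset had a net change within 0.5 on the log2 scale, 129 on the higher and 78 on the lower side. For 201 of these the E14.5 and E18.5 arrays overlapped in at least 1 probeset, and 77 were at or below background at every stage, so that their small net change gives no level. Being near the start is also a matter of scaling, since a net change of 0 lies below the 0.51 of the median gene. Of the 207 genes, 41 were still agreeing and within 0.5 after quantile normalization and 0 with median centring, and 192 with a pseudocount of 64 and 93 with a pseudocount of 1. At E16.5, 21 were called higher and 17 lower, 10.1% and 8.21% of them beside 23.9% and 16.1% of all genes. Every probeset departed the same way in 7 and 13 of these. Only 3 of the 21 and 3 of the 17 calls held under every alternative, and without single E16.5 arrays the counts dropped to 10 and 7 at the lowest.

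The 3 calls on the higher side that held were Saa1, Slc45a3 and Setd1b. Saa1, an acute-phase serum amyloid, gave 64.5 and 36.5 at E14.5, 772, 536 and 647 at E16.5, and 15.3, 22.7 and 65.9 at E18.5. All 3 E18.5 arrays and 1 of 2 E14.5 arrays were at or below background, whereas all 3 E16.5 arrays were at least 8 times every other array. The departure was 3.64 ± 0.33 (SE), adjusted p = 2.74e-05, and reached 5.77 in the other probeset. Slc45a3, a solute carrier, gave 547 and 500.4 at E14.5, 1171, 1515 and 1328 at E16.5, and 628, 572 and 594 at E18.5, a departure of 1.21 ± 0.12 (SE), adjusted p = 4.58e-05, with no overlap between E16.5 and either other stage in this probeset. Its other probeset departed by 0.32, and there the E16.5 and E18.5 arrays overlapped. Setd1b, a histone H3 lysine 4 methyltransferase, gave 748 and 972 at E14.5, 1532, 1553 and 1533 at E16.5, and 949, 819 and 1062.5 at E18.5, a departure of 0.76 ± 0.13 (SE), adjusted p = 0.000911. The other Setd1b probeset departed by 0.25, and there the E16.5 arrays overlapped those of both other stages. After quantile normalization the net changes of Saa1, Slc45a3 and Setd1b were -1.39, -0.35 and -0.13, and with median centring -1.51, -0.83 and -0.89, so that the brightest probesets of Setd1b and Slc45a3 stayed within 0.5 under the first. Slc45a3 and Setd1b, higher at E18.5 in the deposited values, were lower in every probeset under both, as were Ddx55, Tspyl4, Jmjd4, Gfod1, Ppp3cc, Nmnat3 and Syt4, described next.

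Bub1, a spindle checkpoint kinase, gave 760.4 and 930.3 at E14.5, 1399, 1385 and 1522 at E16.5, and 493, 685 and 1176.5 at E18.5, with a departure of 0.87 ± 0.23 (SE), adjusted p = 0.0124, but its other probeset departed by −0.52, and the call was lost with the mean of both (adjusted p = 0.530). The RNA helicase Ddx55, the nucleosome assembly relative Tspyl4 and the hydroxylase Jmjd4 also had a probeset that departed downward, by −0.45, −0.44 and −1.29, and their calls were lost with the mean of both (adjusted p up to 0.344, 0.648 and 0.396 over the alternatives). Synrg, a clathrin adaptor partner, departed by 0.72 ± 0.19 (SE), adjusted p = 0.0106, a call lost after either other scaling (adjusted p up to 0.111).

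Of the 8 named genes called lower at E16.5, the calls of Gfod1 and Tom1l1 held under every alternative. Gfod1, an oxidoreductase-like protein, gave 274 and 318 at E14.5, 112, 179.9 and 206 at E16.5, and 338, 431 and 282 at E18.5, a departure of -0.94 ± 0.23 (SE), adjusted p = 0.00757. Tom1l1, an endosomal adaptor, gave 549 and 557 at E14.5, 224, 304 and 213 at E16.5, and 451, 495 and 315 at E18.5, a departure of -0.88 ± 0.19 (SE), adjusted p = 0.00401. In both genes the E16.5 arrays lay below all others. Gfod1 was 0.22 higher at E18.5 in the deposited values and lower after quantile normalization, at -0.59, and Tom1l1 was lower in both, at -0.41 and -0.99. Qrsl1, a mitochondrial amidotransferase subunit, departed by -0.81 ± 0.22 (SE), adjusted p = 0.0145, and Syt4, a synaptotagmin, by -0.72 ± 0.19 (SE), adjusted p = 0.0143, calls lost without E16.5 replicate 3 (adjusted p up to 0.0800 and 0.0727). Ppp3cc, a calcineurin subunit, Nmnat3, an NAD synthesis enzyme, and Rint1, a vesicle tethering protein, departed by -0.88, -0.73 and -0.60, and their calls were lost with the mean of their probesets (adjusted p up to 0.0794, 0.245 and 0.176 over the alternatives). Sry, the testis-determining factor, was called lower from a probeset with 40.6 and 64 at E14.5, 9.59, 10.3 and 14.7 at E16.5, and 28.2, 43.5 and 38.7 at E18.5, where only 1 of the 8 arrays was above background, and its other probeset departed by 0.0037. Its call was lost with the mean of both (adjusted p up to 0.0721).

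In 35 of the 207 genes every probeset also departed by under 0.25 at E16.5. Such small differences do not mean equal stages. The brightest of these genes were Hax1, a mitochondrial protein, with 7172 and 6216 at E14.5, 6845, 6552 and 6909 at E16.5, and 5588, 4521 and 5818 at E18.5, and the transcriptional coactivator Sub1, with 4686 and 5239.9 at E14.5, 5412, 5307 and 5313.5 at E16.5, and 5092, 6589 and 5423 at E18.5. Both E14.5 arrays of Hax1 lay above all 3 E18.5 arrays. Trap1, the mitochondrial Hsp90, gave 1138 and 1338 at E14.5, 1748, 1642 and 1696 at E16.5, and 1809.6, 1703 and 1638 at E18.5, with both E14.5 arrays below all later ones, and Adam12, a metalloprotease, 1102 and 1191.5 at E14.5, 1273, 862 and 917 at E16.5, and 893, 1385 and 1474 at E18.5, with overlap between all stages. Their net changes were -0.34, 0.19, 0.47 and 0.0916. After quantile normalization all 4 had probesets of both signs, and with median centring Hax1, Sub1, Trap1 and Adam12 were lower, at -1.36, -0.83, -0.55 and -0.93.

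**Figure D5:**
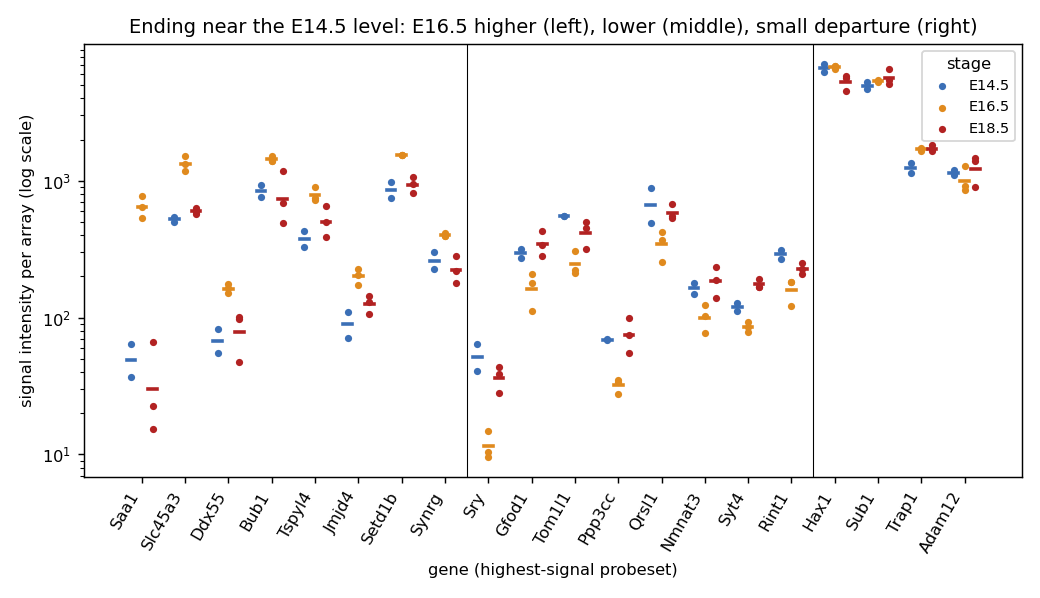
Signal intensity on each array (vertical axis, log scale) of 20 agreeing genes whose probesets all ended within 0.5 (log2) of E14.5 (horizontal axis), each by its highest-signal probeset. Points are single arrays coloured by stage and dashes stage means; the left group was called higher at E16.5, the middle group lower, and the right group departed by under 0.25, and the orange E16.5 points of Saa1, from 536 to 772, stand clear of all its others.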

How the data were processed

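Total RNA of 8 samples was hybridised to Affymetrix Mouse Genome 430 2.0 arrays. The deposited values are signal intensity on a linear scale for 45101 probesets, made with Affymetrix Expression Console 1.1 and PLIER 2.0, per the submitters' processing notes. No source used here gives their background correction or normalization. The labels' protocol describes sense-strand DNA targets as used for whole-transcript arrays, so how targets for this 3′ array were made is uncertain.

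Leaving out 932 probesets with several symbols, 9211 with none and 64 controls, most of which have no symbol either, left 34945. Signals were analysed as log2(signal + 16). The E16.5 departure was fitted over all 18193 genes and 8 arrays with limma 3.58.1 in R 4.3.3 (lmFit, eBayes with trend), 1 probeset per gene, and called where the two-sided p, adjusted by Benjamini-Hochberg, was under 0.05. It was tested on simulated data. Background was the 95th percentile of 80 olfactory and vomeronasal receptor probesets on each array, and folds from a stage at or below it are lower bounds.

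Members, lists and tests were chosen with earlier results of these data known. Genes were named by a fixed rule: the 10 largest net changes each way by the probeset nearest to 0, with E14.5 and E18.5 arrays separate and the higher of these stages above background in every probeset, up to 8 called each way and 4 with small departures near the start, up to 2 per list and direction, and those beside the threshold, passing over clone names. Other list genes, and those under other observations, were chosen after their values were seen. The number of arrays limits the precision.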

Additional observations from a re-analysis of the deposited data

How the results depend on the processing

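The count of agreeing genes was 3626 to 4106 over pseudocounts, scalings and single arrays left out (3931 to 4106), and 3263 with only probesets above background on 2 or more arrays. Its parts moved more. Genes higher at E18.5 numbered 1855 after quantile normalization and 999 with median centring, against 3331, and genes lower numbered 1771 and 2899, against 737. Genes ending near their start, 207, numbered 104 with a pseudocount of 1, 557 with 64, 90 with only probesets above background on 2 or more arrays, 52 with a margin of 0.25 and 746 with a margin of 1. Without single arrays they numbered 171 to 219. Genes called higher at E16.5, 1444, numbered 958 with median centring and 1014 to 1712 without single arrays. Those called lower, 462, numbered 727 with median centring, 301 where every probeset had to depart the same way and 337 to 503 without single arrays. Of the agreeing genes, 65.2% were found again after quantile normalization and 56.3% with median centring. The departure reversed for Jmjd4 (−0.2532) and Gata2 (−0.2672) with the mean and with the median of all probesets. The cause of these shifts was not tested. No paired analysis was possible because the labels do not explain the codes in the sample titles, which match between no 2 arrays, and the replicate numbers used here follow accession order.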

Other observations

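Some agreeing genes outside the lists had large E16.5 departures, with calls that held under every alternative. Sod3, the extracellular superoxide dismutase, gave 109 and 1.93 at E14.5, 1866, 2763 and 3041 at E16.5, and 413, 759 and 415 at E18.5, so that all 3 E16.5 arrays lay above all others, with a departure of 3.65 ± 0.51 (SE), adjusted p = 0.000323. Fmo2, a flavin monooxygenase, gave 62.1 and 17.5 at E14.5, 1775, 3499 and 3388 at E16.5, and 546, 1701 and 1013 at E18.5, a departure of 3.19 ± 0.39 (SE), adjusted p = 0.000143, although its probesets departed by 0.53 to 3.19. Fgf22, a fibroblast growth factor, was below background at E14.5 and gave 2.43 and 2.41 at E14.5, 572, 852 and 791 at E16.5, and 338, 352 and 176 at E18.5, a departure of 2.94 ± 0.26 (SE), adjusted p = 2.32e-05. On the late side, Mrap, the melanocortin receptor accessory protein expressed in fat, gave 8.91 and 1.16 at E14.5, 25.2, 8.51 and 2.51 at E16.5, and 279, 427 and 208 at E18.5, below background until E18.5, with a departure of -1.98 ± 0.34 (SE), adjusted p = 0.00116. The net change was 3.90 in this probeset but 0.28 in the other Mrap probeset, which departed by -0.45. Car5b, a mitochondrial carbonic anhydrase, was likewise low until E18.5, with 36.2 and 55.2 at E14.5, 4.68, 28.4 and 23.6 at E16.5, and 239.9, 226 and 139 at E18.5 and a departure of -1.96 ± 0.32 (SE), adjusted p = 0.000862. Chrdl1, a secreted BMP antagonist, dipped, with 240.4 and 206 at E14.5, 74.1, 43.6 and 52.2 at E16.5, and 227, 278 and 285 at E18.5, a net change of 0.22 (1.05 to 2.10 in its other 3 probesets) and a departure of -1.87 ± 0.21 (SE), adjusted p = 9.75e-05. Arl15, a small GTPase, also dipped in its brightest probeset, with 769 and 1146 at E14.5, 336, 455 and 357 at E16.5, and 1167.5, 1639.8 and 1148 at E18.5 and a departure of -1.55 ± 0.18 (SE), adjusted p = 0.000112. Its other probeset did not dip, with a net change of 2.66, a departure of -1.37 and an E16.5 mean above that of E14.5. These genes were picked after their values were seen.

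The 4942 genes left out by the rule include some whose probesets lay far apart in opposite directions. In 1702 of them at least 1 probeset was higher and another lower by 1 or more on the log2 scale, and in 387 by 2 or more. Gja1, the gap junction protein connexin 43, had a probeset with 90.5 and 74.2 at E14.5 and 5369, 7699 and 5122 at E18.5, and another with 16806 and 6040.3 at E14.5 and 653, 104 and 493 at E18.5. Kdm6b, a histone demethylase, had net changes of 6.16 and −4.37 in 2 of its probesets, and Coro1c, an actin-binding coronin, of 4.49 and −4.85. For such genes the probeset chosen sets the direction of the net change.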
